A study of Rattus norvegicus with 8 samples.

Results

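Regulators of chromatin and DNA methylation were followed in laser-captured motoneurons of the rat lumbar spinal cord. The set was a list of 48 genes for DNA methylation, histone deacetylation, Polycomb repression, histone demethylation, chromatin remodelling and chromatin architecture. Its members were taken as every probe set of the array whose single annotated gene symbol was on the list, which gave 69 probe sets for 43 genes, of 14217 genes with such a probe set on the whole array. Hdac9, Sirt1, Bmi1, Kdm4a and Hmgb2 had 0 probe sets of that kind, and Hmgb2 shares its probe set with related sequences. Of the 69 probe sets, 51 passed a filter on dim signal and stood for 40 genes. All animals were Wistar albino rats, with no genetic or drug treatment named in the labels. One group was taken at postnatal day 1 (P1), while myelin is forming, and the other at postnatal day 21 (P21), when myelination is complete, with 4 arrays each. Each array carried RNA amplified in 2 rounds from 1500 to 2000 cells that were cut from cresyl violet-stained sections, and RNA came from pools of 4 rats. Each of 4 litters gave animals to both ages.

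DNA methylation is laid down on CpG dinucleotides by the DNMT enzymes, read by methyl-CpG-binding proteins and oxidised by the TET enzymes, which starts its removal. Histone deacetylases and Polycomb complexes favour closed chromatin, the ATP-dependent BAF and NuRD complexes move nucleosomes, and HMG and HP1 proteins shape the fibre. Spinal motoneurons leave the cell cycle before birth, and neurons exchange several of these subunits as they leave it and mature. The best known exchange is that of BAF subunits, in which ACTL6A of dividing progenitors gives way to ACTL6B, and EZH1 is the Polycomb methyltransferase that non-dividing cells keep when EZH2 is lost.

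Because CpG dinucleotides are the substrate of several of these enzymes, the stretch just before the start of the member genes was read for them in RefSeq sequence of the rat assembly GRCr8. Of the 43 genes, 35 had exactly 1 start in that table, 5 had several and 3 had none. The 250 bases upstream of the start are shown for the 2 members with the largest called fall and the 2 with the largest called rise among those with 1 start. They are written from 5′ to 3′ on the strand of the gene, with each CG in capitals.
Kdm2b, chr12:39235228-39235477 (plus strand): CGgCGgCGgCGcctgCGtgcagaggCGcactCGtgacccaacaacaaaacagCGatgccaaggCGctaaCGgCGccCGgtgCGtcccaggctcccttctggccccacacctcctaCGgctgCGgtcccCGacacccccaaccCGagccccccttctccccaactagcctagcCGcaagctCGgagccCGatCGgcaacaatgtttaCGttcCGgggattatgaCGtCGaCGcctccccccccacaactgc
Hdac6, chrX:17222925-17223174 (plus strand): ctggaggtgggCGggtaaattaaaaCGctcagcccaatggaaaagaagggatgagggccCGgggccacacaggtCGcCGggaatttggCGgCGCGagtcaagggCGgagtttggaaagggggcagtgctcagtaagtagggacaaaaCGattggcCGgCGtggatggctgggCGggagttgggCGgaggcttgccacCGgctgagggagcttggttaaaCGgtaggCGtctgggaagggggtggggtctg
Hdac8, chrX:71632866-71633115 (minus strand): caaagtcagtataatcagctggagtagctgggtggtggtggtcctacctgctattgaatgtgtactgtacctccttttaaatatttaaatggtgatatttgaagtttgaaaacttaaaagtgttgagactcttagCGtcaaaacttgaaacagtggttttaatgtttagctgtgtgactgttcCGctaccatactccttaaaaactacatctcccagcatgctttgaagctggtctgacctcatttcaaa
Hmga1, chr20:5613258-5613507 (plus strand): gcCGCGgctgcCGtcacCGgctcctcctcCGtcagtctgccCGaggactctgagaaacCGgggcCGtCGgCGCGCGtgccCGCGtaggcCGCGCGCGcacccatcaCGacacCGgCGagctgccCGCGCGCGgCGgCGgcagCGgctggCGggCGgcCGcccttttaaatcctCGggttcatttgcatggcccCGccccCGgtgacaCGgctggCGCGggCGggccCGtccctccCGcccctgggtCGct

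The motif searched was CG, which reads the same on both strands. There were 26 in the Kdm2b window, 17 in that of Hdac6, 2 in that of Hdac8 and 41 in that of Hmga1. The median of the 35 members was 21, against 9 over 17545 protein-coding genes with 1 start. A window with at least 10 was found for 32 of the 35 members (91.4%) and for 49.5% of all those genes, and a window with at least 1 CG for 93.1% of all genes. Those genes were not limited to ones detected on the arrays, and the members were not compared with the genes tested. The 6 members called higher at P21 had a median of 24.5, the 6 called lower 18 and the 22 that did not pass 21. Hdac8 had the fewest CG of the 35 members and Hmga1 the most, and both rose.

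The arrays of 1 age resembled each other, with correlations of 0.958 to 0.986 across the kept probe sets, against 0.821 to 0.868 between ages. Below, an intensity is the deposited linear value, a change is log2(intensity + 16) at P21 minus that at P1 with its standard error, and n = 4 arrays per age. A gene is called where limma's adjusted p over all 19155 kept probe sets was under 0.05. Defining transcripts of the labelled cell type were present, with Chat at 1377 ± 244 (SD) at P1 and 3451 ± 450 at P21 and Slc18a3 at 4103 ± 644 and 3769.5 ± 1033. Of 6 motoneuron markers measured 1 (Chat) rose and 1 (Isl1) fell. Genes of other cells moved as well, where 22.0% of all genes tested rose and 17.4% fell. Of 11 oligodendrocyte and myelin markers measured, 9 rose, and their summed intensity was 9548 to 11621 at P1 and 37975 to 40324 at P21, with Mobp at background (-2.65 to 23.5) at P1. Of 5 measured markers of oligodendrocyte precursors 3 rose and 1 fell (sums of 7696 to 8835 and 10409 to 12448). Of 10 astrocyte markers 7 rose and 2 fell (21747 to 23693 and 25827 to 30477), of 9 microglial markers 6 rose and 1 fell (2644 to 3831 and 5551 to 9274), and of 11 endothelial and pericyte markers 7 rose (8627 to 10608 and 12416 to 24152). Of 5 Schwann cell markers 3 rose and 1 fell (10741 to 13846 and 11922 to 16485), of 4 erythrocyte markers 2 rose (2986 to 8615 and 9214 to 12827), and of 7 interneuron markers 2 rose and 5 fell (17008 to 18455 and 12171 to 15246). Of 16 markers of dividing cells 5 fell (10896 to 12534 and 8916 to 12196), while 5 more were too dim to test (Ccna2, Bub1b, Plk1, Mcm5 and Tyms). The part of such cells in the results below was not tested. The counts of risen markers include Mog, Mobp, Opalin, Tyrobp and Cd74, which lay under the filter level on all P1 arrays. Those of fallen markers include Cd53, Mcm6, Tk1 and Tac1, which lay under it on all P21 arrays. All of these were kept only through the age where they were high. The samples are pools of cells, so a change in the share of cells with a transcript and a change of its level per cell cannot be told apart.

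The question was which chromatin regulators differ in motoneurons between the time of myelination and its end. Of the 40 members tested, 17 passed, 7 of them higher and 10 lower at P21. The members therefore passed in 42.5% of cases, near the 39.4% of all 10961 genes tested. Rises made up 17.5% of the members against 22.0% of all genes, and falls 25.0% against 17.4%. Counts for single classes of members below are to be read against these shares of all genes. The median change was -0.10 for the members and 0.05 for all genes. At least 1.5-fold was reached by 9 of the called members (22.5%, against 22.5% of all genes). In 15 members (37.5%) the intensities of the ages did not overlap, against 40.1% of all genes. Of the 51 member probe sets kept, 22 passed (43.1%, against 38.3% of all kept probe sets), 10 higher and 12 lower, and in 20 (39.2%, against 38.0%) the ages did not overlap. These counts include 1 dim Smarca2 probe set that was kept only through its P21 arrays. The largest changes among the genes were the fall of Kdm2b and the rise of Ezh1. The share of called probe sets of the whole array that were higher at P21 was 54.4%, and 38.6% with each array centred on its median, which moved the median change of all probe sets from 0.07 to -0.07. With that centring 4 members were called higher and 12 lower, so small rises below depend on the scaling.

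**Figure D1:**
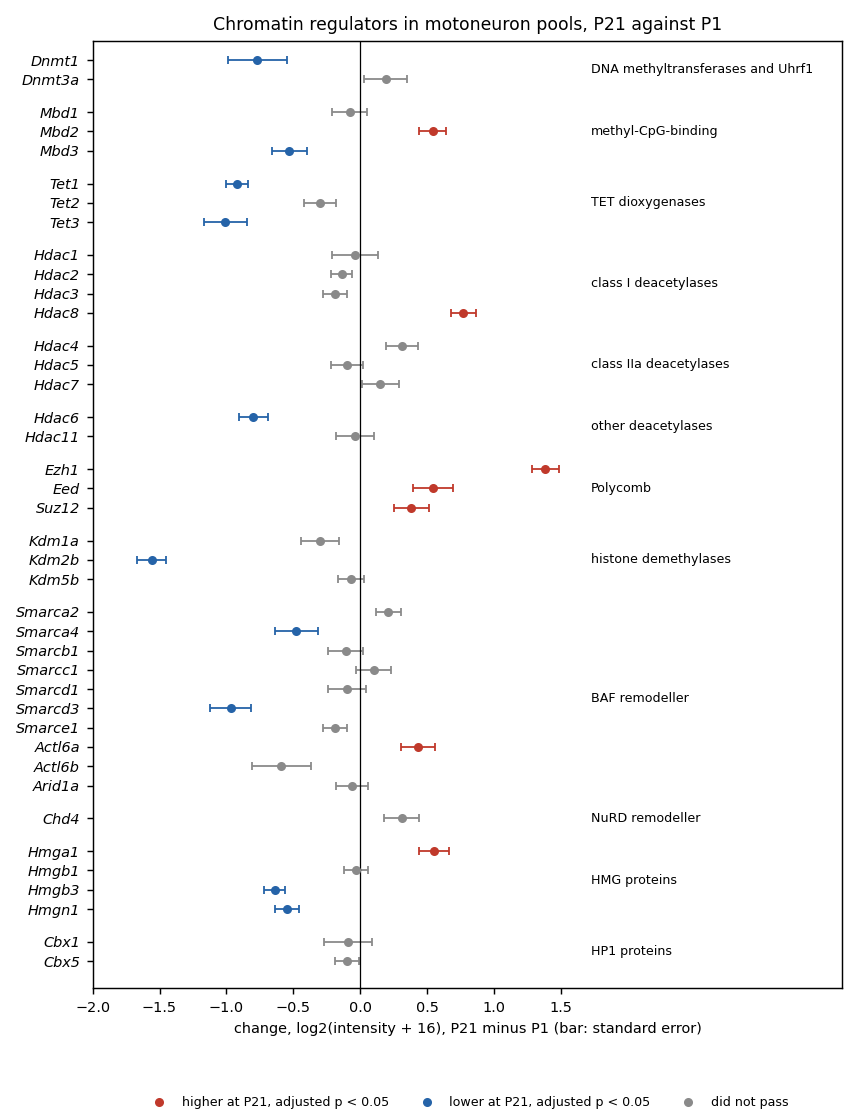
Change between P1 and P21 of the 40 members tested, 1 row a gene and grouped by role. The x axis is log2(intensity + 16) at P21 minus P1, bars are standard errors (n = 4 arrays per age), and colours give limma's call. Kdm2b at -1.56 lies farthest to the left and Ezh1 at 1.38 farthest to the right, and 23 genes did not pass.

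**Figure D2:**
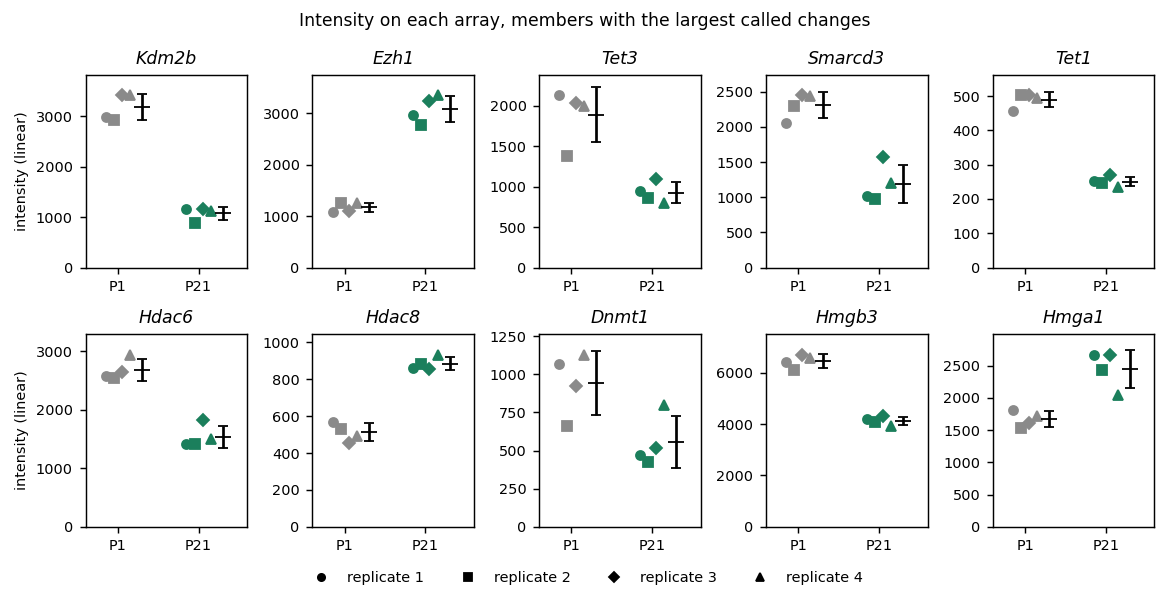
Intensity on each array of the 10 called members with the largest change. The y axis is the deposited linear intensity from 0, symbols mark the replicate number, and black bars give the mean and SD of each age. In all of them but Dnmt1 the ages do not overlap.

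Among the enzymes that write DNA methylation, the maintenance methyltransferase gene Dnmt1, which copies methylation to new strands, fell. Dnmt1 read 1066, 658, 919.9 and 1129 on the P1 arrays and 469, 422, 519.6 and 801 on the P21 arrays. The ages overlap, since P21 replicate 4 lay above P1 replicate 2. The change was -0.77 ± 0.22 (1.70-fold lower, limma adjusted p = 0.0214). P21 replicate 4 was also the highest P21 array for 12 of the 16 dividing-cell markers, with a summed intensity of 12196 against 8916 to 9899.8 on the other P21 arrays. Of the endothelial and pericyte markers, Col1a1 (8626 against 2336 to 4154) and Col1a2 were highest on that array at P21. Cldn5, Pecam1, Flt1, Kdr, Tek, Vwf and Slc2a1 were lowest there, and Rgs5 and Pdgfrb lay between. Of the microglial markers, Lyz2 (3278 against 1427 to 1854), Csf1r, Tyrobp and Cd74 were highest on that array at P21. C1qc and Cd53 were lowest there, and Aif1, C1qa and C1qb lay between. The part of such cells in the Dnmt1 values was not tested. Without that array the change of Dnmt1 was -0.96 (limma adjusted p = 0.00429). The call was lost without P1 replicate 1, P1 replicate 4, P21 replicate 1 or P21 replicate 2, where the adjusted p lay between 0.0558 and 0.0623. The de novo methyltransferase gene Dnmt3a, which sets new methylation in maturing neurons, read 599 to 912 at P1 and 760.0 to 1021 at P21, and its change of 0.19 ± 0.16 did not pass (95% interval -0.16 to 0.54). Dnmt3b, the other de novo enzyme, and Uhrf1, which brings DNMT1 to replicated DNA, were too dim to test. Dnmt3b read 114 to 188 over all arrays, and Uhrf1 read 185 to 235 at P1 and 64.3 to 198 at P21. With no filter on dim signal the change of Uhrf1 was -0.67 ± 0.27 (adjusted p = 0.107) and that of Dnmt3b 0.19 ± 0.17 (adjusted p = 0.489).

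Of the 3 genes of the methyl-CpG-binding family, 1 rose and 1 fell. Mbd2, whose protein joins one form of the NuRD complex, read 1798, 2047, 2035 and 2215 at P1 and 2911, 2727, 3153 and 3019 at P21. All P21 arrays lay above all P1 arrays, and Mbd2 rose by 0.54 ± 0.10 (1.46-fold, adjusted p = 0.00173). Mbd3, which defines the alternative form of NuRD and hardly binds methylated DNA, read 1097, 1166, 1214 and 1326 at P1 and 708, 729, 923 and 966 at P21. Its arrays were separated in the opposite direction, with a change of -0.53 ± 0.13 (1.45-fold lower, adjusted p = 0.00823). Mbd1, another reader, read 1156 to 1529 and 1092 to 1461 and did not pass (-0.08 ± 0.13).

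Of the 3 TET dioxygenase genes, Tet1 and Tet3 fell and Tet2 did not pass. Tet1 read 457, 502, 502 and 495 at P1 and 252, 246, 269 and 236 at P21, separated completely (-0.92 ± 0.08, 1.90-fold lower, adjusted p = 3.26e-05). Only 1 of its 4 P21 intensities exceeded the filter level of its array, so the P21 value lies close to background. Tet3, the TET gene most studied in mature neurons, read 2132, 1385, 2039.8 and 1997 at P1 and 949, 861, 1091 and 798 at P21. The ages were again separate, although P1 replicate 2 stood below its group, and the change was -1.01 ± 0.16 (2.01-fold lower, adjusted p = 7.6e-04). Another kept probe set of Tet3 gave -0.89 ± 0.10 (adjusted p = 1.02e-04), from 1039.8 to 1149 down to 512 to 639. Tet2 read 469 to 614 and 403 to 509, with a change of -0.30 ± 0.12 (adjusted p = 0.0794). Tet2 passed as a fall with arrays centred (-0.44, adjusted p = 0.0267), with quantile normalization (-0.42, adjusted p = 0.0192) and without P21 replicate 1 (-0.37, adjusted p = 0.041), the array that read 509.

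Of the class I deacetylase genes, which act on histones in the nucleus, 1 of 4 passed. Hdac8, an X-linked member also known as the deacetylase of cohesin, read 571, 528, 457 and 494 at P1 and 859.9, 882, 858 and 934 at P21. No P1 array reached any P21 array, and the rise was 0.77 ± 0.09 (1.71-fold, adjusted p = 1.92e-04). Hdac1 and Hdac2, the catalytic partners in NuRD, Sin3 and CoREST complexes, did not pass. Hdac1 read 353 to 557 and 339.8 to 551 (-0.04 ± 0.17). Hdac2 read 4689 to 4964 at P1 and 4104 to 4509 at P21, which do not overlap, but the change of -0.14 ± 0.08 was small (adjusted p = 0.197, 95% interval -0.33 to 0.04). Hdac3, the enzyme of the NCOR complex, read 2339 to 2501 and 1885 to 2363 (-0.19 ± 0.09, adjusted p = 0.149).

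Class IIa deacetylases shuttle between nucleus and cytoplasm and repress MEF2 targets. Of the 3 measured, 0 passed limma's test or limma-trend, and 1, Hdac4, had an unadjusted p under 0.05. Hdac4 read 468 to 625 at P1 and 580.4 to 748 at P21 (0.31 ± 0.12, adjusted p = 0.0799), and passed without P1 replicate 2 (0.38, adjusted p = 0.0412). Hdac5 had a difference of -0.10 ± 0.12 and Hdac7 of 0.15 ± 0.14, neither past the test (95% intervals -0.37 to 0.17 and -0.17 to 0.47). Of the remaining deacetylases, Hdac6, a cytoplasmic enzyme that deacetylates tubulin, read 2569, 2541, 2644 and 2939 at P1 and 1418, 1408, 1816 and 1495 at P21. All P21 arrays lay below all P1 arrays (-0.80 ± 0.11, 1.74-fold lower, adjusted p = 3.41e-04). Hdac11, the class IV enzyme, was spread more widely at P21 (873 to 1343) than at P1 (1111 to 1172), with a change of -0.04 ± 0.14 that did not pass (adjusted p = 0.852).

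Of the Polycomb repressive complex 2 (PRC2) members, all 3 that could be tested rose, against 22.0% of all genes. The calls of Eed and Suz12 did not hold under every alternative. Other genes whose proteins join PRC2, taken from the wider list below, did not pass. These were Jarid2 (-0.04 ± 0.12), Mtf2 (-0.34 ± 0.14), Phf1 (0.12 ± 0.19), Aebp2 (0.10 ± 0.11) and Rbbp7 (-0.12 ± 0.08). Ezh1, the PRC2 methyltransferase in non-dividing cells, had the largest rise of the 40 members. It read 1089, 1257, 1095 and 1248 at P1 and 2978, 2777, 3242 and 3356 at P21, and rose by 1.38 ± 0.10 (2.61-fold, adjusted p = 7.44e-06). A dimmer probe set of Ezh1 also rose, from 250.1 to 401 up to 409 to 441 (0.39 ± 0.13, adjusted p = 0.0461), and the mean of both gave 0.89. Eed, the subunit that reads methylated lysine 27 of histone H3, read 604, 830.3, 671 and 836 at P1 and 961, 946, 1051 and 1346 at P21, without overlap. Its rise was 0.54 ± 0.15 (1.45-fold, adjusted p = 0.0181), and was no longer past the test with arrays centred (0.40, adjusted p = 0.0646). Suz12, the scaffold subunit, read 1260.1, 1519, 1089.9 and 1046 at P1 and 1592, 1546, 1468 and 1751 at P21. P1 replicate 2 lay above P21 replicate 3, and the rise of 0.38 ± 0.13 (1.30-fold) passed narrowly (adjusted p = 0.0423). It held without P1 replicate 2 and was lost when any other single array was left out (adjusted p 0.0517 to 0.118), with no filter (0.0812), with centring (0.139) and with quantile normalization (0.0634). The 3 probe sets of Ezh2, the methyltransferase of dividing cells, were too dim to test, the brightest at 219 to 295 at P1 and 201 to 229 at P21 (-0.27 ± 0.12, adjusted p = 0.137 with no filter). A difference in change between Ezh1 and Ezh2 was not tested for that reason.

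Among histone demethylase genes, Kdm2b had the largest change of all 40 members. KDM2B binds unmethylated CpG through a zinc finger and brings a variant Polycomb complex to CpG islands, and its own upstream window above holds 26 CG. Kdm2b read 2994, 2934, 3411 and 3416 at P1 and 1153, 884, 1151 and 1124 at P21. Every P21 array was far below every P1 array (-1.56 ± 0.11, 2.94-fold lower, adjusted p = 8.36e-06). Kdm1a, the LSD1 enzyme of the CoREST complex, read 2262, 2339, 2616 and 2689 at P1 and 1646, 1844, 2525 and 2122 at P21, with overlap at P21 replicate 3. Its change of -0.30 ± 0.14 did not pass (adjusted p = 0.121), but passed with the replicate number as a block (adjusted p = 0.0401) and without P21 replicate 3 (-0.41, adjusted p = 0.0316). Kdm5b, which removes methyl groups from lysine 4 of histone H3, did not pass on its brightest probe set (-0.07 ± 0.10, adjusted p = 0.603). Of its 3 other kept probe sets 1 fell, from 1036 to 1225 down to 858 to 1003 (-0.30 ± 0.10, adjusted p = 0.0368), and the others changed by -0.02 and 0.08.

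Of the 10 genes of the BAF remodelling complex, 3 passed, 1 higher and 2 lower. Smarcd3, one of 3 alternative subunits of the same position and the one linked to neurons and muscle, read 2059, 2298, 2451 and 2437 at P1 and 1019, 977, 1566 and 1200.3 at P21. The ages were separate (-0.97 ± 0.15, 1.96-fold lower, adjusted p = 7.56e-04). Smarcd1, its alternative, read 1559 to 2049.6 and 1313 to 1922 and did not pass (-0.10 ± 0.14). The actin-related subunit genes had changes of opposite sign. Actl6a, the progenitor form, read 545, 629, 634 and 755 at P1 and 860.1, 721, 902 and 998 at P21, so that only P21 replicate 2 lay below the highest P1 array. It rose by 0.43 ± 0.13 (1.35-fold, adjusted p = 0.0261). The rise was lost with centring (0.30, adjusted p = 0.172), with no filter (adjusted p = 0.054) and when P1 array 1 or 3, or P21 array 1, 3 or 4, was left out (adjusted p 0.0525 to 0.0693). Actl6b, the neuronal form, read 1389, 1517, 1733 and 1962 at P1 and 769, 873, 1350.3 and 1505 at P21. Replicates 3 and 4 were the higher ones at both ages, and the change of -0.59 ± 0.22 did not pass (adjusted p = 0.0568). It passed as a fall with the replicate number as a block (adjusted p = 0.0072), with centring (-0.73, adjusted p = 0.0239), with quantile normalization (-0.63, adjusted p = 0.0274), with limma-trend (0.0342), with the filter at the 60th percentile (0.047), and without P21 replicate 3 (0.0448) or P21 replicate 4 (0.0207).

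The catalytic BAF genes are the alternative ATPases Smarca2 (BRM) and Smarca4 (BRG1). Smarca4 read 3319, 2264, 3448 and 3444 at P1 and 2119, 2222, 2609 and 1886 at P21 on its brightest probe set. P1 replicate 2 stood apart from the other P1 arrays, inside the P21 range. The fall was 0.48 on the log2 scale (SE 0.16, adjusted p = 0.037). Another kept probe set of Smarca4 read 2224 to 2976 and 2124 to 2776 and did not pass (-0.10 ± 0.12), nor did the mean of both (-0.29, adjusted p = 0.0841). The call was also lost with no filter (0.0707) and when P1 array 1, 3 or 4, or P21 array 1, 2 or 4, was left out (0.0718 to 0.0974). Smarca2 read 3303 to 3863 at P1 and 4050.0 to 4386 at P21, which do not overlap, yet the change was 0.21 ± 0.09 (adjusted p = 0.0875). A dim probe set of Smarca2, under the filter level on all P1 arrays, read 201 to 249.6 at P1 and 289 to 416 at P21, at least 1.31-fold higher. It was kept only through its P21 arrays, so its p is not given. Another probe set gave 0.50 ± 0.36 (adjusted p = 0.315). Smarca2 passed with the mean of its probe sets, that dim one included (0.43, adjusted p = 0.0391), with quantile normalization (0.26, adjusted p = 0.0241) and with limma-trend (adjusted p = 0.0259).

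The core BAF genes Smarcb1 (-0.11 ± 0.13), Smarcc1 (0.10 ± 0.13) and Arid1a (-0.06 ± 0.12), which form or stabilise its body, did not pass. Smarce1, an HMG-box subunit, was called on 1 of its 3 kept probe sets. The brightest read 4353 to 4923 and 3846 to 4441 (-0.19 ± 0.09, adjusted p = 0.124, and 0.0368 with limma-trend). A second probe set read 340.0, 492, 340.4 and 322 at P1 and 668, 873, 688 and 779 at P21 and rose by 0.99 ± 0.15 (adjusted p = 6.34e-04). The remaining one gave -0.02 ± 0.09, and the mean of the 3 passed as a rise (0.26, adjusted p = 0.0301), so no direction is given for the gene. Chd4, the ATPase of NuRD, read 1148 to 1699 at P1 and 1617 to 1946 at P21 (0.31 ± 0.13, adjusted p = 0.0776). It passed as a rise with the replicate number as a block (adjusted p = 0.0223), with the mean of its probe sets (0.42, adjusted p = 0.0479) and without P1 replicate 1 (0.40, adjusted p = 0.0392).

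**Figure D3:**
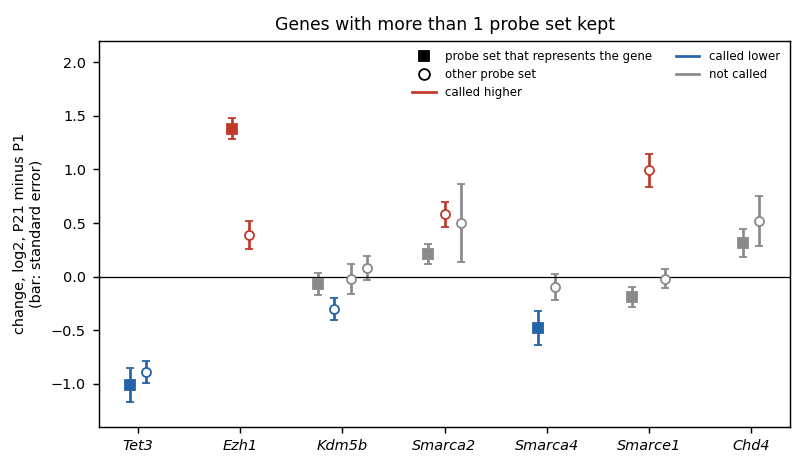
Change of each kept probe set of the 7 genes that had more than 1. The y axis is log2(intensity + 16) at P21 minus P1 with standard errors, filled squares mark the probe set that represents the gene, and colours give limma's call, with 1 Smarca2 probe set under the filter level on all P1 arrays. Tet3 and Ezh1 were called the same way on both of theirs, while 1 of 3 Smarce1 probe sets rose by 0.99 and the others lay at -0.19 and -0.02.

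Of the 4 HMG genes tested, 1 rose and 2 fell. Genes of this family have many near-identical processed copies in mammalian genomes, so their probe sets may read more than 1 of them. Hmgb3, a DNA-bending HMG-box protein abundant in embryonic tissue, read 6430.3, 6091, 6701 and 6565 at P1 and 4178, 4071, 4319 and 3914 at P21. Each age was tight and they were separate (-0.64 ± 0.08, 1.56-fold lower, adjusted p = 2.45e-04). Hmgn1, which binds nucleosomes and loosens them, read 4450.4, 4993, 4591 and 5034 at P1 and 3332, 3362, 3004 and 3337 at P21 (-0.55 ± 0.09, 1.46-fold lower, adjusted p = 0.001). Hmgb1, the most widely expressed relative of Hmgb3, read 3742 to 3939.9 and 3467 to 3971 and did not pass (-0.03 ± 0.09, 95% interval -0.23 to 0.16). Hmga1, an AT-hook protein known from embryonic and tumour cells, rose. It read 1809, 1532, 1614 and 1718 at P1 and 2672, 2431, 2669 and 2044 at P21, without overlap (0.55 ± 0.11, 1.46-fold, adjusted p = 0.00385). The HP1 genes Cbx1 (-0.09 ± 0.18) and Cbx5 (-0.10 ± 0.09), whose proteins bind methylated lysine 9 of histone H3, did not pass.

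Related genes were also compared within arrays, as the log2 ratio of one to the other, which shows unequal change and not which is more abundant. Of 15 pairs listed 11 could be measured. In an exact two-sided permutation test of the 4 P21 against the 4 P1 ratios, 6 pairs reached 0.0286, the smallest p that 4 against 4 allows. After Benjamini-Hochberg adjustment over the 11 pairs these 6 stood at 0.0524, so 0 passed. The 6 were the pairs whose ratios did not overlap between ages, which is the same fact as that smallest p. How often the ratio of any 2 genes does not overlap was not computed, and 40.1% of all single genes did not overlap. Mbd2 over Mbd3 shifted by 1.07 ± 0.09 (SE), from 0.70, 0.80, 0.74 and 0.73 to 2.02, 1.88, 1.75 and 1.63. Actl6b over Actl6a shifted by -1.02 ± 0.18, from 1.33, 1.25, 1.43 and 1.36 to -0.16, 0.27, 0.57 and 0.58, and its P1 ratios were much closer together than its P21 ratios. The other shifts were -0.87 ± 0.22 for Smarcd3 over Smarcd1, -0.81 ± 0.15 for Hdac11 over Hdac8, 0.69 ± 0.14 for Smarca2 over Smarca4 and 0.61 ± 0.07 for Hmgb1 over Hmgb3. Dnmt3a over Dnmt1 shifted by 0.96 ± 0.30 and Hdac5 over Hdac4 by -0.41 ± 0.19 (exact p = 0.0571, adjusted 0.0786 for both). Tet3 over Tet1 shifted by -0.08 ± 0.17, Hdac1 over Hdac2 by 0.10 ± 0.20 and Cbx1 over Cbx5 by 0.01 ± 0.18 (exact p = 0.629, 0.657 and 0.971).

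**Figure D4:**
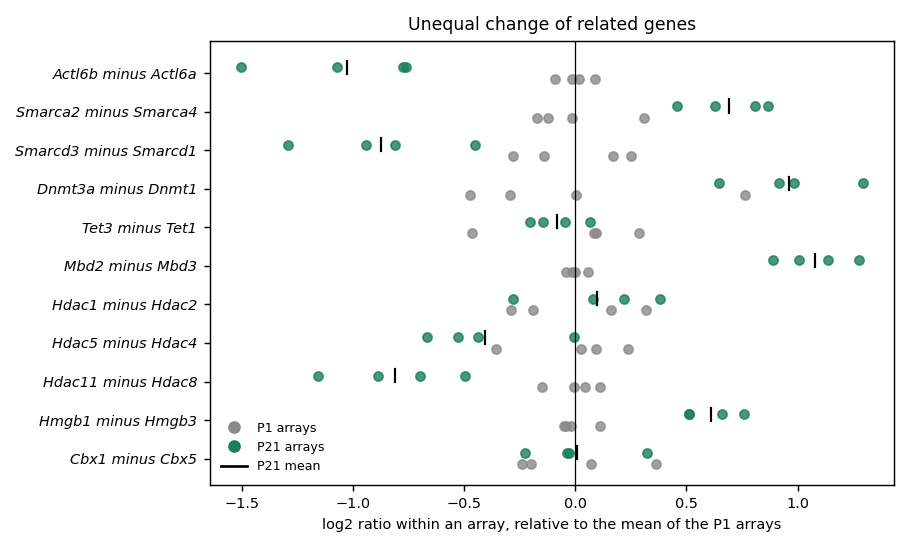
Log2 ratio of 2 related genes within each array, for 11 pairs, with the mean of the P1 arrays of each pair set to 0. Grey points are P1 arrays, green points P21 arrays and black ticks the P21 mean. The P21 points lie wholly to one side of the P1 points in 6 pairs, farthest for Mbd2 over Mbd3 (1.07) and Actl6b over Actl6a (-1.02). The share of other gene pairs that do so was not computed.

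The wider machinery was read from a list of 186 further chromatin genes, of which 145 could be tested. Of these 27 were higher (18.6%, against 22.0% of all genes) and 35 lower (24.1%, against 17.4%) at P21. That made 42.8% called against 39.4% of all genes, with a median change of -0.01. Counts of rises and falls in the sublists are to be read against these shares of all genes. They include Cbx7 and Bcl11a, each kept only through the arrays of the age where it was high. The genes named from here on are among the 2 largest called rises and falls of each sublist. Exceptions are Cbx2, Dpf1, Dpf2, Ss18l1, Hmgn2, Hmgn3 and Rcor1, which were picked after their values were seen. Of 18 other Polycomb genes 4 rose and 4 fell. The canonical PRC1 subunit gene Cbx7 rose from 130.9 to 139.6 up to 715 to 842, at least 2.90-fold. Every P1 array was under the filter level, so Cbx7 was kept only through its P21 arrays and its p is not given. Pcgf5, a variant PRC1 subunit, rose from 434 ± 37.9 to 1244 ± 132 (1.49 ± 0.11). Rnf2, the ubiquitin ligase of PRC1, fell from 1747 ± 110.5 to 829 ± 96.5 (-1.07 ± 0.11), and Phc1 fell by 1.14 on the log2 scale. Cbx2, a sister of Cbx7, fell as well (-0.61 ± 0.11).

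Of 16 further BAF genes 3 rose and 3 fell. Dpf1, a subunit that joins the complex with Actl6b in neurons, fell from 1333 ± 179.5 to 589.7 ± 71.8 (-1.15 ± 0.12, adjusted p = 8.54e-05). Ss18l1, another subunit of the neuronal complex, did not pass (0.05 ± 0.18, adjusted p = 0.856). Bcl11b (-1.42 ± 0.12) and Bcl11a (at least 2.88-fold lower), which are also transcription factors of developing neurons, fell too. Every P21 array of Bcl11a was under the filter level, so Bcl11a was kept only through its P1 arrays and its p is not given. Bcl7b rose from 392.5 ± 49.3 to 1762 ± 207 (2.12 ± 0.12), Smarcd2, the remaining alternative to Smarcd1 and Smarcd3, rose by 0.65 ± 0.11, and Dpf2 by 0.56 ± 0.10. Of 16 other remodeller genes 3 rose and 5 fell, led by the ISWI gene Smarca1, from 1368 ± 190.3 to 342 ± 56.2 (-1.95 ± 0.14), while its close relative Smarca5 rose by 0.45 ± 0.09. The difference between these relatives was not tested.

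Of 13 further histone demethylase genes 3 rose and 5 fell. Kdm7a, which acts on lysines 9 and 27 of histone H3, rose from 454 ± 55.3 to 1622 ± 140.1 (1.80 ± 0.11, adjusted p = 3.24e-06). Kdm1b, the relative of Kdm1a, fell by 0.80 ± 0.11 on the log2 scale. Kdm5a rose (0.69 ± 0.12), and Kdm5c fell (-0.75 ± 0.13), a call lost with the mean of its probe sets (-0.28, adjusted p = 0.21). Of 25 histone methyltransferase genes 4 rose and 6 fell. Ehmt1, which methylates lysine 9 of histone H3, fell (-0.63 ± 0.13), and Kmt5a, the enzyme of lysine 20 of histone H4, rose by 0.95 ± 0.13. Of 13 acetyltransferase and bromodomain genes 2 rose and 2 fell, with Kat2b up (1.30 ± 0.19) and Kat6a (-0.60 ± 0.10) and Brd3 (-0.62 ± 0.12) down.

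Of 18 further genes of HMG proteins, linker histones, histone variants and chaperones, 2 rose and 8 fell. Hmga2, the relative of Hmga1, fell from 1809 ± 208 to 891 ± 119 (-1.01 ± 0.12), opposite to Hmga1. Hmgn2 (-0.64 ± 0.10) and Hmgn3 (-0.42 ± 0.10) fell, as Hmgn1 did. Macroh2a2, which encodes a variant of histone H2A, fell (-1.08 ± 0.14), and the linker histone gene H1f2 rose from 1952 ± 123 to 4804 ± 525 (1.29 ± 0.11). Of 12 further genes of DNA methylation 3 rose and 1 fell. Gadd45b, which is tied to active demethylation after neuronal activity, rose from 331 ± 34.2 to 903 ± 189.7 (1.39 ± 0.15), and Tdg, the glycosylase that removes the bases TET enzymes oxidise, fell from 2857 ± 456 to 1619 ± 281 (-0.81 ± 0.16, adjusted p = 0.00284). Of 14 further deacetylase and corepressor genes 3 rose and 1 fell. Sirt2, a tubulin and histone deacetylase abundant in oligodendrocytes, rose from 1304 ± 160.5 to 2531 ± 305 (0.95 ± 0.12). Of the 11 oligodendrocyte markers given above 9 rose, and their part in the Sirt2 rise was not tested. The CoREST genes Rcor2 (0.92 ± 0.18) and Rcor1 (0.66 ± 0.16) rose and the corepressor gene Ncor1 fell (-0.72 ± 0.09).

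**Figure D5:**
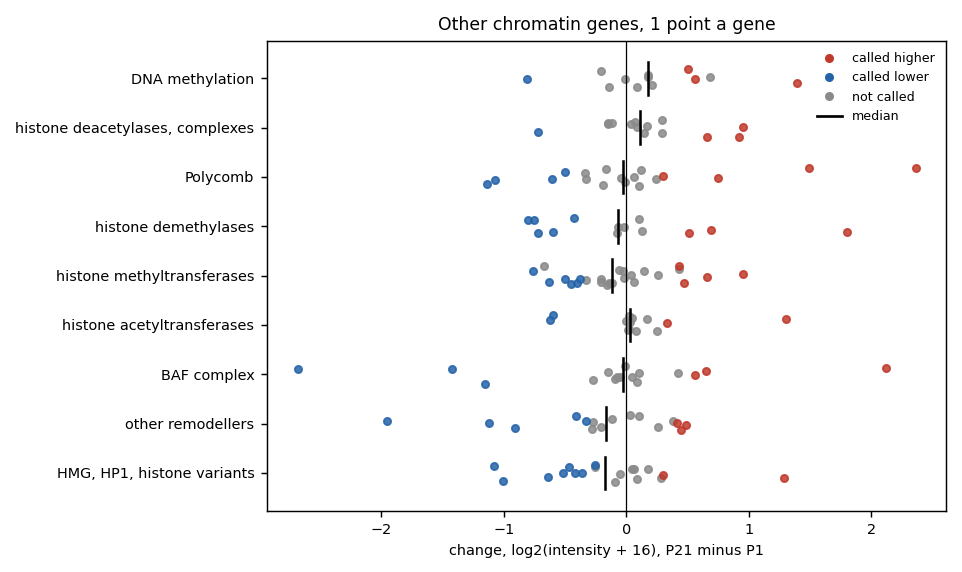
Change of 145 further chromatin genes in 9 sublists, 1 point a gene, spread vertically only to keep points apart. The x axis is log2(intensity + 16) at P21 minus P1, colours give limma's call and black ticks the median of each sublist, and Cbx7 and Bcl11a (farthest right and left) lay under the filter level at 1 age, so that their position is not a measured size. The sublist medians lie between -0.18 and 0.18, with called genes on both sides in every sublist.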

How the data were processed

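The authors deposited 1 table of linear probe-set intensity for 31042 probe sets on 8 Affymetrix RAE230 2.0 arrays, 4 per age, per the labels and design text. Probe summarisation and array scaling are steps not given in the sources used here. Array medians lay between 323 and 416, and 66 to 250 values per array were below 0. For arrays the number of samples limits the precision. The members and gene lists were chosen with earlier results of these data known.

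Probe sets were named from the platform's annotation, where 20826 had 1 symbol, 436 several and 9780 none. The gene identifier of 20758 matched the table of assembly GRCr8, and 0 symbols changed. After values below 0 had been raised to 0, limma 3.58.1 in R 4.3.3 (lmFit, eBayes) was run on log2(intensity + 16) of the 8 arrays with age as the one term. A probe set was kept if it exceeded the 40th percentile of its array (221 to 287) on at least 4 arrays, which left 19155. P-values were adjusted over these by Benjamini-Hochberg. A gene was its kept probe set of highest mean. Where all 4 intensities at 1 age lay under that percentile, the fold is against the percentile level, as at least N-fold. The fit was tested on simulated data. Values in every array were to be given for called members changed at least 1.5-fold or, if fewer than 10, the 10 with the largest change, and others were added once their values were known.

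Both ages carry replicate numbers 1 to 4. Deviations of same-numbered arrays from their age mean correlated at 0.514, 0.321, 0.558 and 0.15, above 0.1 each. The design text splits each litter between ages, so equal numbers may be pairs. The main fit and the test of related genes leave this pairing out. It enters only as the replicate block among the alternatives. P1 replicate 4 and P21 replicate 3 also correlated (0.366), as did P1 replicate 1 and P21 replicate 2 (0.262). 17 alternatives were run: offsets of 4 and 64, no filter, the 60th percentile, centring, quantile normalization, the replicate block, limma-trend, the mean of a gene's probe sets, and leaving out each array.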

Additional observations from a re-analysis of the deposited data

Results flagged for a closer look

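In 102 groups of 4 arrays (51 member probe sets at 2 ages), 8 held an array that passed Dixon's test for an outlier. Its gap to the nearest other array, divided by the range of the 4 on the log2 scale, exceeded the 95% critical value. Chance gives about 1 such group in 20. P1 replicate 2 was the array in 3 of the 8: Tet3 read 1385 there against 1997 to 2132 on the other P1 arrays, Smarca4 2264 against 3319 to 3448, and the dimmer Smarce1 probe set 492 against 322 to 340.4. On the other arrays, Tet1 read 457 on P1 replicate 1 (others 495 to 502), Tet2 509 on P21 replicate 1 (403 to 416), Kdm2b 884 on P21 replicate 2 (1124 to 1153), Hmgn1 3004 on P21 replicate 3 (3332 to 3362) and Cbx1 1219 on P21 replicate 4 (812 to 853). Leaving out P1 replicate 2 gave 18 called members in place of 17.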

How the results depend on the processing

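Of the 17 called members, 12 kept their direction and call under every alternative in which they were tested, and Dnmt1, Eed, Suz12, Smarca4 and Actl6a lost the call under at least 1. Over the 17 alternatives 258 of 288 values of called members kept the call and 30 lost it, with 0 reversed. Of the 23 members not called, 16 stayed so throughout. Smarce1 turned from -0.19 to 0.26 with the mean of its probe sets. With centring 4 members were called higher in place of 7, and 6 member probe sets in place of 10. With the replicate block 20 members passed in place of 17, adding Kdm1a, Actl6b and Chd4 with none lost, and that fit ended no call given in the text. Leaving out 1 array gave 14 to 18 called members, 5 to 8 of them higher and 8 to 12 lower, 17 to 23 called member probe sets, 7 to 11 of them higher and 9 to 14 lower, and 54 to 63 other chromatin genes, 23 to 26 of them higher and 31 to 37 lower. With the filter at the 60th percentile 6 pairs of related genes passed in place of 0, where fewer pairs were tested and the adjusted p was 0.0429. The pair test was not run with 1 array left out as a count, since 3 against 4 cannot go below 0.0571, nor within replicate pairs, where 4 pairs cannot go below 0.125, and limma-trend does not apply to it. Probe sets near background limit what can be said of Dnmt3b, Uhrf1, Ezh2 and Tet1.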

Other observations

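The 18 member probe sets that failed the filter read 20.1 to 327.8. When no filter was applied 0 of them passed limma's test, and 2 had an unadjusted p under 0.05. Hmga1 rose by 0.55 while Hmga2 fell by 1.01, and Mbd2 rose by 0.54 while Mbd3 fell by 0.53.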
